A study of Mus musculus with 4 samples.

Results

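The genes Gabra2, Gabra3, Gabra4 and Gabra5 encode alpha subunits of the GABA-A receptor. They were chosen by name, as 4 of the 15632 genes in tables of single nuclei from the mouse deep cerebellar nuclei. The tables list 11 other GABA-A subunit genes. GABA-A receptors are chloride channels opened by GABA. Each is assembled from several subunits, of which the alpha subunits help to set where the receptor sits, how strongly it binds GABA and which benzodiazepines act on it. The neurons of the deep cerebellar nuclei receive dense GABA input from Purkinje cells, and astrocytes and oligodendrocyte precursors also carry these receptors.

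The deep cerebellar nuclei are the output structures of the cerebellum. Nuclei were profiled in 4 libraries from C57BL/6J mice, 2 libraries of the Ucn3-Cre line at 3 months of age and 2 of the vGluT2-Cre line at 2 and 2.5 months. Ucn3-Cre (Tg[Ucn3-cre]KF31Gsat/Mmucd) and vGluT2-Cre (Tg(Slc17a6-icre)1Oki) place Cre under the control of the urocortin 3 gene and of the vesicular glutamate transporter gene. The mice of all 4 libraries also carried Ai32, from which Cre switches on a light-gated channel fused to EYFP. The labels name no sort for EYFP, so the nuclei are not limited to cells that used Cre. Ucn3-Cre replicate 1 was female and its nuclei came from an iodixanol gradient, Ucn3-Cre replicate 2 was male, vGluT2-Cre replicate 1 was male and vGluT2-Cre replicate 2 was female, the last 3 purified on a sucrose cushion. The labels do not say whether a library holds 1 mouse or several. Each line has 1 female and 1 male library. Age differs with the line and cannot be told apart from it, and the iodixanol gradient was used for 1 library only.

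The libraries held 4291 to 6587 nuclei and totalled 9096357 to 19125488 counts, with a median of 1730 to 3206 counts per nucleus. After removal of likely doublets, 20547 of 21494 nuclei were kept, and 41 barcodes occurred in more than 1 library. Markers named 547 glutamatergic neurons, 1340 inhibitory neurons, 5027 astrocytes, 694 oligodendrocyte precursors, 6962 oligodendrocytes, 763 microglia, 737 endothelial cells, 183 mural cells and 79 fibroblasts or meningeal cells. The inhibitory class was named for neurons of the deep nuclei or Golgi neurons, which its markers do not separate. Of the glutamatergic neurons 472 were also in the table of 480 vGluT2 nuclei that the authors deposited. Clusters 2 and 6, led by Enpp6 and by Piezo2, scored highest for oligodendrocyte markers but stayed unnamed, as did cluster 7 with 19 nuclei. Of the 1254 oligodendrocytes in cluster 3, 985 came from vGluT2-Cre replicate 1. Levels are given as CPM, the counts of a gene per 1000000 counts, from the sum over all nuclei of a class in a library, and are compared for each gene with itself only, since CPM are not scaled by gene length.

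Gabra2, Gabra4, Gabrg1 and Gabrb1 lie next to each other on chromosome 5 in the mouse genome (GRCm38, GENCODE annotation). Gabra2 (ENSMUSG00000000560) spans 70957597 to 71095849 on the minus strand. Gabra4 (ENSMUSG00000029211) spans 71569749 to 71658308 on the minus strand and overlaps the start of Gabrb1, on the opposite strand, by 196 bases. Gabra3 (ENSMUSG00000031343) lies on chromosome X from 72432681 to 72656848, also on the minus strand. Gabra5 (ENSMUSG00000055078) lies on chromosome 7 from 57407672 to 57510059 on the minus strand, and most of it is also annotated on the opposite strand. Whether counting used the strand is not given in the sources used here, so counts of Gabra5 may include reads of the opposite strand and are uncertain.

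The 250 bases before the RefSeq starts of Gabra2 and Gabra3 are shown because one of these genes was highest in astrocytes and the other in neurons and oligodendrocyte precursors. They are read in the direction of the gene from RefSeq on GRCm38.p6, at chr5:71095850-71096099 and chrX:72656920-72657169, both minus strand. Capitals mark a match to the letters of the GC box (GGGCGG) in the Gabra2 window. In the Gabra3 window they mark a match to those of the TATA box (TATAAA, here on the other strand as TTTATA). The search asked for no position or direction, so the matches are not shown to be working elements.
Gabra2: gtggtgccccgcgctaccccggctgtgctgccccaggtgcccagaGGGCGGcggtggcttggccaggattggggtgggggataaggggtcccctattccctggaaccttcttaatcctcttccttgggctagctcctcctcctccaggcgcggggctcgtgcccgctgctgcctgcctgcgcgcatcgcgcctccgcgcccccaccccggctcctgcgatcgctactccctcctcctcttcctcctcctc
Gabra3: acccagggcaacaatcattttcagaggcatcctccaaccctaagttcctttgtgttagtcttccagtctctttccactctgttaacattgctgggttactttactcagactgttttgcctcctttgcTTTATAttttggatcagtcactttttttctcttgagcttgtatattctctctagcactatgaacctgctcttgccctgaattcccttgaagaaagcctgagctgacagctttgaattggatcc
The Gabra2 window was 70.0% G and C and the Gabra3 window 42.4%. The GC box occurred in 32.7% and the TATA box in 12.4% of 32851 windows of the same length, counted on both strands. The other motifs searched, the NFI full site, the E-box CAGCTG and the cyclic AMP response element TGACGTCA, had no match in either window. RefSeq lists 2 starts for Gabra3, of which the upstream one is shown, since the window of the other overlaps an exon of Gabra3.

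Gabra2, a subunit found at many synapses of the forebrain, was highest in astrocytes and second highest in glutamatergic neurons. In astrocytes it stood at 386 and 296 CPM in Ucn3-Cre replicates 1 and 2 and at 431 and 419 CPM in vGluT2-Cre replicates 1 and 2, a mean of 383 ± 60.9 CPM (SD, n = 4). In glutamatergic neurons it stood at 163 and 151 CPM in Ucn3-Cre libraries and at 198 and 137 CPM in vGluT2-Cre libraries, a mean of 162 ± 26.0 CPM. Every astrocyte value lay above every glutamatergic value. Oligodendrocyte precursors averaged 28.5 ± 10.95 CPM, inhibitory neurons 19.0 ± 8.19 CPM, mural cells 13.5 ± 11.98 CPM, endothelial cells 12.04 ± 8.09 CPM, oligodendrocytes 2.85 ± 0.83 CPM and microglia 2.47 ± 3.59 CPM. Of all 6598 Gabra2 counts, 80.5% were in astrocytes, which were 24.5% of the nuclei, and 15.1% in glutamatergic neurons, which were 2.66% of the nuclei.

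Differences between neighbours in that order were tested over 8 classes with edgeR's quasi-likelihood test, the library as block, and Benjamini-Hochberg adjustment over 12691 genes. In this fit 97.7% of genes differed between classes, so the passing of Gabra2, Gabra3 and Gabra4 (adjusted p = 7.85e-39, 4.37e-27 and 1.32e-35 in the F test over classes) is no result about these genes, and their order and size carry the description. Gabra2 was higher in astrocytes than in glutamatergic neurons, by 1.32 on the log2 scale (SE 0.11, adjusted p = 7.8e-16), beside 66.6% of genes called. It was higher in glutamatergic neurons than in oligodendrocyte precursors, by 2.53 (SE 0.22, adjusted p = 3.5e-14), beside 50.1% of genes called. Precursors and inhibitory neurons did not differ beyond the threshold of 0.05 (log2 difference 0.69, SE 0.32, adjusted p = 0.0768, beside 44.2% of genes called), although they passed without Ucn3-Cre replicate 2 (1.10, adjusted p = 0.00843) and with values rounded up (0.76, adjusted p = 0.0431). Neither did inhibitory neurons and mural cells (adjusted p = 0.789, beside 35.4%), mural and endothelial cells (adjusted p = 0.704, beside 20.3%), or oligodendrocytes and microglia (adjusted p = 0.94, beside 49.6%). Endothelial cells passed against oligodendrocytes (1.37, SE 0.54, adjusted p = 0.0223, beside 65% of genes), but not without Ucn3-Cre replicate 1 (adjusted p = 0.0635) without vGluT2-Cre replicate 1 (adjusted p = 0.157) or with values rounded up (adjusted p = 0.106).

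**Figure D1:**
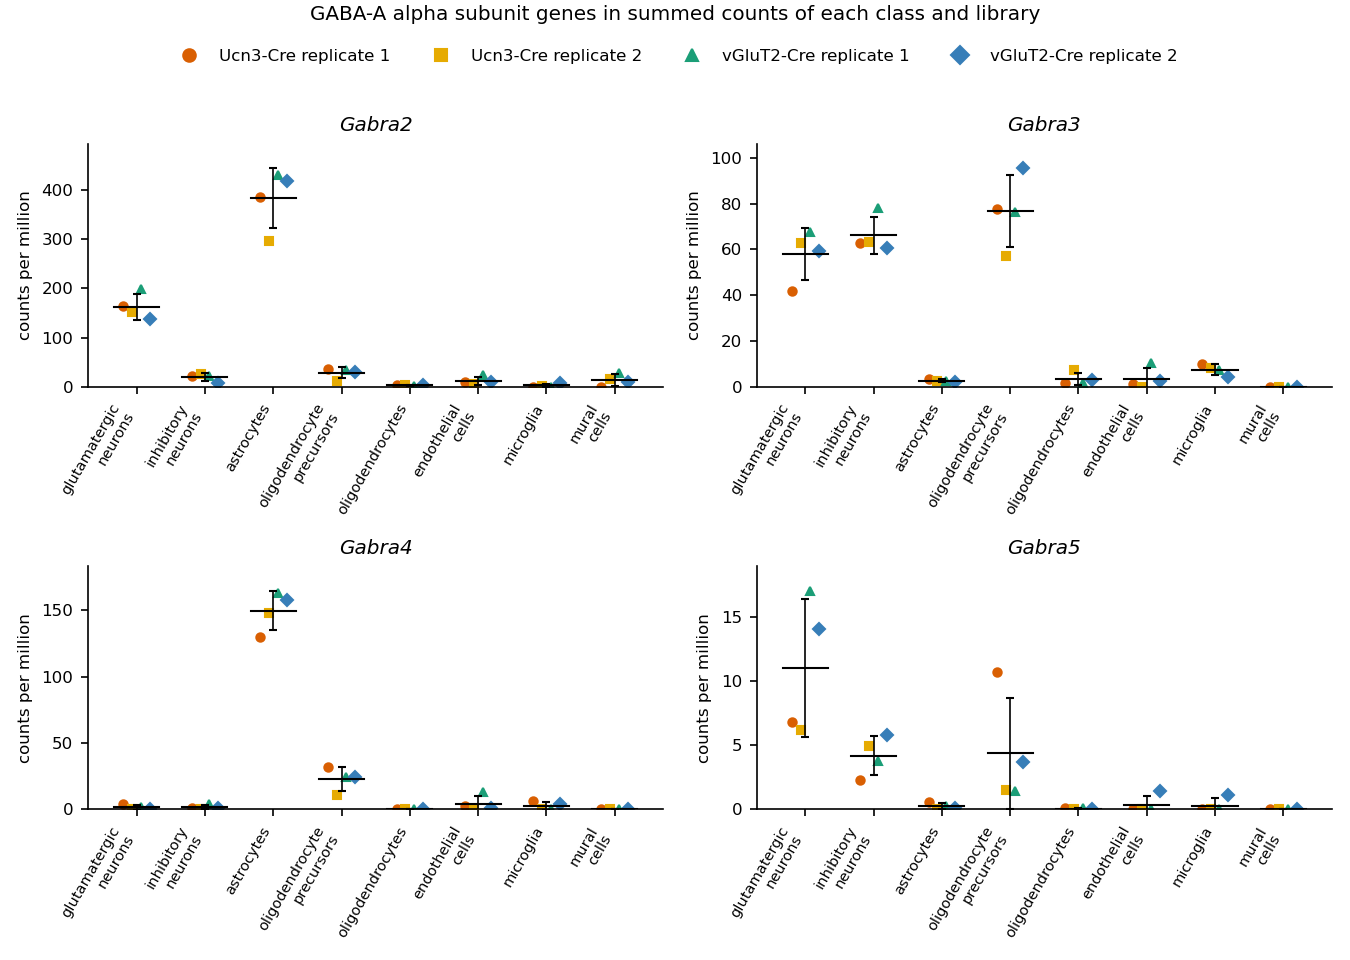
CPM (vertical axes, linear) of 4 GABA-A alpha subunit genes in the counts summed over each of 8 classes (horizontal axes), 1 point per library, with the mean (line) and SD (bar) of 4 libraries. Gabra2 and Gabra4 were highest in astrocytes, at 383 and 150 CPM on average, and Gabra3 stood at 58.0 to 76.6 CPM in both neuron classes and in oligodendrocyte precursors.

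Gabra4, a subunit known in other brain regions from receptors outside synapses, was found almost entirely in astrocytes. There it stood at 130 and 148 CPM in Ucn3-Cre libraries and at 163 and 158 CPM in vGluT2-Cre libraries, a mean of 150 ± 14.7 CPM (SD, n = 4). Oligodendrocyte precursors had 31.9 and 10.9 CPM in Ucn3-Cre libraries and 24.4 and 24.8 CPM in vGluT2-Cre libraries. Apart from fibroblasts or meningeal cells, which held 1 count in 79 nuclei and were not tested, all other classes averaged 4.19 CPM or less, with glutamatergic neurons at 1.62 ± 1.88 CPM and inhibitory neurons at 1.69 ± 1.47 CPM. Astrocytes held 96.1% of all 2184 Gabra4 counts, and oligodendrocyte precursors 2.02%. Gabra4 was higher in astrocytes than in precursors, by 2.87 (SE 0.21, adjusted p = 6.59e-17, beside 42.5% of genes called), and higher in precursors than in endothelial cells, by 3.71 (SE 0.63, adjusted p = 1.63e-06, beside 57.9%). In the main test no neighbours below them passed, namely endothelial cells and microglia (adjusted p = 0.933, beside 53.6%), microglia and inhibitory neurons (adjusted p = 0.956, beside 61.4%), inhibitory and glutamatergic neurons (adjusted p = 0.566, beside 25.5%), and glutamatergic neurons and oligodendrocytes (adjusted p = 0.0679, beside 70.1%). The last pair passed with other size factors (adjusted p = 0.0494) and with values rounded up (adjusted p = 0.0258). Mural cells were at 0 in every library, so the test against oligodendrocytes (adjusted p = 0.84, beside 28.4%) gives no fold.

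The same order appeared in single nuclei once depth was equal. A nucleus has a count of a gene where its deposited value, which need not be whole, rounds to at least 1 (a limit of 0.5). Drawn down to 1000 counts each, 28.1% of astrocytes (95% exact binomial interval 26.9 to 29.4) and 15.0% of glutamatergic neurons (12.1 to 18.3) had a Gabra2 count, against 2.76% of inhibitory neurons and 0.19% of oligodendrocytes. At full depth the shares were 52.8% of astrocytes and 69.1% of glutamatergic neurons, whose median depths were 2654 and 9976 counts, against 0.45% of oligodendrocytes at 1833 counts. Gabra4 at 1000 counts was found in 12.9% of astrocytes and 2.3% of oligodendrocyte precursors. It was found in 0 of 547 glutamatergic neurons at that depth, which allows a share of up to 0.548%, and in 1.46% of them at full depth, against 0.01% of oligodendrocytes. These intervals and limits cover counting error only.

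Counts of Gabra2 per count of Gabra4 differed between classes. In astrocytes the ratio was 2.97 and 2.01 in Ucn3-Cre libraries and 2.65 in both vGluT2-Cre libraries. In oligodendrocyte precursors it was 1.15 and 1.14 in Ucn3-Cre libraries and 1.40 and 1.25 in vGluT2-Cre libraries. In glutamatergic neurons it was 38.3 in Ucn3-Cre replicate 1 and 122 in vGluT2-Cre replicate 1, each over fewer than 4 Gabra4 counts, and Ucn3-Cre replicate 2 had 246 Gabra2 counts with no Gabra4 count. The 7 astrocyte markers summed to 23.9 to 56.9 CPM in glutamatergic neurons, against 6093 to 6827 CPM in astrocytes, and none of the 7 was at 0.

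Astrocytes fell into 3 clusters, and Gabra2 differed between all of them. Cluster 9 (1578 nuclei, led by Gfap and Aqp4 among others) had 550 and 477 CPM in Ucn3-Cre libraries and 624 and 638 CPM in vGluT2-Cre libraries. Cluster 5 (1195 nuclei, Gm12239 and Gpc5) had 387 and 262 CPM in Ucn3-Cre libraries and 390 and 343 CPM in vGluT2-Cre libraries. Cluster 4 (2254 nuclei, Gria1 and the GABA transporter gene Slc6a11) had 277 and 227 CPM in Ucn3-Cre libraries and 330 and 320 CPM in vGluT2-Cre libraries. In each of the 4 libraries the order was cluster 9 above cluster 5 above cluster 4.

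The F test over the 3 clusters called 34.5% of 10965 genes, Gabra2 (adjusted p = 4.18e-17) and Gabra4 (adjusted p = 0.00197) among them. Gabra2 was higher in cluster 9 than in cluster 4 by 0.88 on the log2 scale (SE 0.07, edgeR's quasi-likelihood test with the library as block, adjusted p = 1.34e-17), in a comparison that called 23.7% of genes. Cluster 9 was also above cluster 5 (0.52, SE 0.07, adjusted p = 2.42e-09, beside 34.6% of genes), and cluster 5 above cluster 4 (0.36, SE 0.07, adjusted p = 5.56e-05, beside 15% of genes). Gabra4 averaged 189 ± 34.6 CPM in cluster 9, 138 ± 15.7 CPM in cluster 5 and 132 ± 17.6 CPM in cluster 4 (SD, n = 4). It was higher in cluster 9 than in cluster 4 by 0.39 (SE 0.09, adjusted p = 0.00067) and did not pass between cluster 9 and cluster 5 (adjusted p = 0.0866) or cluster 5 and cluster 4 (adjusted p = 0.244). The 7 astrocyte markers, 2 of which are among the leading genes of cluster 9, summed to 8483 to 10163 CPM in cluster 9, 4579 to 4761 CPM in cluster 5 and 5623 to 6061 CPM in cluster 4, and their part in the result was not tested.

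**Figure D2:**
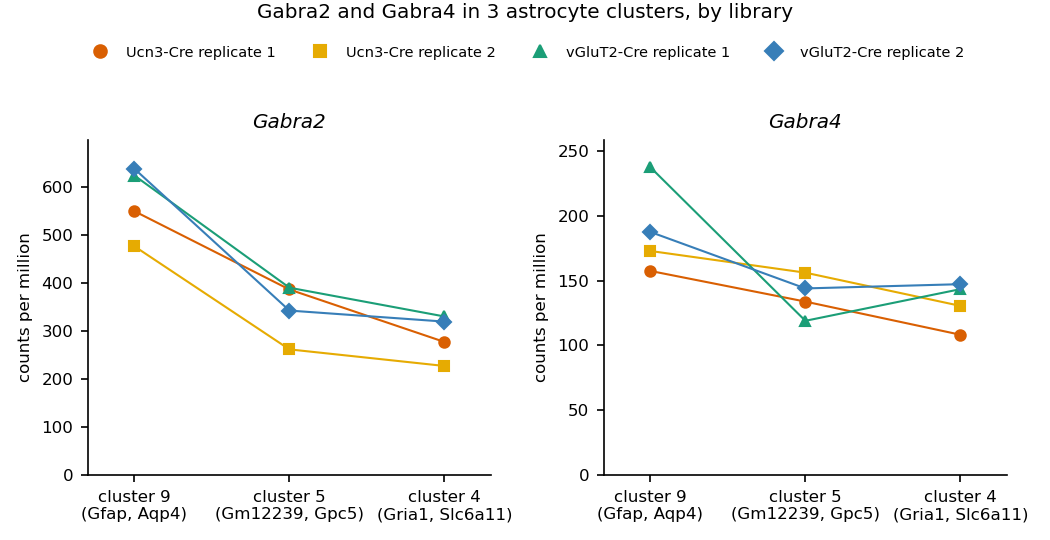
CPM (vertical axes, linear) of Gabra2 and Gabra4 in 3 astrocyte clusters (horizontal axes), 1 line per library. Gabra2 falls in every library along the order cluster 9, cluster 5, cluster 4, while Gabra4 averages 189, 138 and 132 CPM along it.

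Between clusters 9 and 4 other GABA genes changed in both directions, and 23.7% of all genes were called, 12.2% higher and 11.5% lower. Gabrg1, the gamma subunit gene next to Gabra2, stood at 45.6 and 45.8 CPM in Ucn3-Cre libraries and 82.2 and 45.0 CPM in vGluT2-Cre libraries in cluster 9, against 80.5 and 86.9 CPM and 108 and 90.5 CPM in cluster 4. It was lower in cluster 9 by 0.87 (log2 fold change -0.87, SE 0.12, adjusted p = 5.05e-08). Of 9 other GABA-A subunit genes tested, Gabrd rose (1.10, SE 0.35, adjusted p = 0.0126), and Gabrg1 and Gabrg3 (-2.36, SE 0.22, adjusted p = 9.22e-14) fell. The median of the 9 was -0.02. Of 5 genes of GABA synthesis and transport 3 were lower, among them the transporter Slc6a11 (-2.30) and the GABA transaminase Abat (-0.53), of which Slc6a11 is a leading gene of cluster 4 and so no finding. Both GABA-B receptor genes were lower, Gabbr1 by -0.38 and Gabbr2 by -0.49, as log2 fold changes. Of 13 anchoring and assembly genes 3 were higher and 1 lower, and neither of 2 chloride transporter genes passed. The shares of called genes among the other subunits and the anchoring genes are near that of all genes.

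Gabra3, a subunit found in many neurons of the brain stem, was at like levels in both neuron classes and in oligodendrocyte precursors. Precursors had 77.8 and 56.9 CPM in Ucn3-Cre libraries and 76.5 and 95.3 CPM in vGluT2-Cre libraries, a mean of 76.6 ± 15.7 CPM (SD, n = 4). Inhibitory neurons averaged 66.2 ± 8.01 CPM and glutamatergic neurons 58.0 ± 11.3 CPM, and the ranges of the 3 classes overlapped. Microglia averaged 7.42 ± 2.48 CPM, astrocytes 2.57 ± 0.59 CPM, and mural cells were at 0 in every library. Precursors and inhibitory neurons did not differ beyond the threshold (log2 difference 0.31, SE 0.18, adjusted p = 0.175), nor did inhibitory and glutamatergic neurons in the fit over classes (0.07, SE 0.15, adjusted p = 0.805, beside 25.5% of genes called). Glutamatergic neurons were above microglia by 3.47 (SE 0.39, adjusted p = 5.52e-11, beside 64% of genes called). Precursors were above oligodendrocytes, the cells they give rise to, by 4.28 (SE 0.26, adjusted p = 7.71e-20, beside 47.6%). Inhibitory neurons were above oligodendrocytes by 3.97 (adjusted p = 1.4e-22, beside 67.7%) and above astrocytes by 4.53 (adjusted p = 9.45e-24, beside 62.7%). In the main test no neighbours among the low classes passed, namely microglia and endothelial cells (adjusted p = 0.195, beside 53.6%), endothelial cells and oligodendrocytes (adjusted p = 0.244, beside 65%), oligodendrocytes and astrocytes (adjusted p = 0.191, beside 63.9%), and astrocytes and mural cells (adjusted p = 0.431, beside 27%). Without vGluT2-Cre replicate 1 endothelial cells passed against oligodendrocytes, as lower (log2 difference -1.85, adjusted p = 0.0339).

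Of 1102 Gabra3 counts, 42.2% were in inhibitory neurons, 33.4% in glutamatergic neurons and 14.1% in oligodendrocyte precursors. Drawn down to 1000 counts, 5.91% of precursors, 5.60% of inhibitory neurons and 5.48% of glutamatergic neurons had a Gabra3 count, against 0.43% of oligodendrocytes and 0.26% of astrocytes. At full depth the shares were 19.0% of precursors, 26.6% of inhibitory neurons and 43.1% of glutamatergic neurons, against 0.80% of oligodendrocytes and 0.82% of astrocytes. The equal-depth intervals of the first 3 classes overlapped, and lay between 3.73% and 7.93%.

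Gabra5, a subunit best known from receptors outside synapses in the hippocampus, was the least counted member, with 119 counts in all 20547 nuclei. In glutamatergic neurons it stood at 6.79 and 6.18 CPM in Ucn3-Cre libraries and at 17.0 and 14.0 CPM in vGluT2-Cre libraries. In inhibitory neurons it stood at 2.3 and 4.95 CPM in Ucn3-Cre libraries and at 3.76 and 5.78 CPM in vGluT2-Cre libraries, so that every glutamatergic value lay above every inhibitory one. Oligodendrocyte precursors averaged 4.36 ± 4.36 CPM and astrocytes 0.25 ± 0.25 CPM (SD, n = 4). Glutamatergic neurons held 60.6% and inhibitory neurons 25.3% of its counts. Oligodendrocytes held 0.4 of its counts, as fractions below 0.5 in single nuclei, so none of 6962 had a count after rounding, which allows a share of up to 0.0431%. It was too low for the tests over classes and over sub-clusters.

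The glutamatergic neurons of the deep nuclei send output to other brain regions, while the inhibitory ones project to the inferior olive or act locally. The inhibitory class here may also hold Golgi neurons. Between the glutamatergic and inhibitory classes Gabra2 and Gabra5 were higher in glutamatergic neurons and Gabra3 did not pass. Gabra2 was higher by 3.22 on the log2 scale (SE 0.14, edgeR's quasi-likelihood test with the library as block, adjusted p = 2.27e-20), in 4 of 4 libraries. Gabra5 was higher by 1.53 (SE 0.33, adjusted p = 0.000349), also in 4 of 4 libraries, but did not pass without the library block (1.47, adjusted p = 0.105). Gabra3 had a log2 fold change of -0.07 (SE 0.11, adjusted p = 0.70). Gabra4, with 7.7 counts in glutamatergic and 13.9 in inhibitory neurons in all, was below the filter on low counts. In this comparison 33.5% of 11978 genes were called, 2091 higher and 1916 lower.

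The glutamatergic class held sub-clusters of mixed markers. Sub-cluster E5 was led by oligodendrocyte genes such as Mog and Mbp, and E8 by Pax2 and Gad2, with none of its 46 nuclei in the vGluT2 table. E4 and E7 also stayed unnamed, each with 1 marker of molecular layer interneurons among its leading genes and none of glutamatergic neurons. Only E2 had a glutamatergic marker among its leading genes. Of the nuclei of E4, 39 of 40 were in the vGluT2 table, and of those of E7, 35 of 35. Without E5 and E8, the values were 3.22 for Gabra2 (adjusted p = 3.95e-17) and 1.56 for Gabra5 (adjusted p = 0.000588). That check left the nuclei of E8 out and did not place them in the inhibitory class. The inhibitory class held cluster 12, 247 nuclei of low depth in which markers of molecular layer interneurons summed to 2260 to 3155 CPM, against 774 to 896 CPM in inhibitory cluster 10. Without cluster 12 the Gabra2 difference was 3.85 (adjusted p = 3.18e-23) and the Gabra5 difference 1.39 (adjusted p = 0.00109). No inhibitory cluster was shown to be a single type, and p-values between classes drawn from the same counts may be too small, although the receptor genes took no part in the clustering.

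Among other GABA-A subunit genes 5 of 9 tested differed between glutamatergic and inhibitory neurons, 3 higher and 2 lower, against 33.5% of all genes. Gabrg1 was higher by 3.11 (SE 0.26, adjusted p = 4.28e-12), with 33.5 and 29.9 CPM in Ucn3-Cre libraries and 45.1 and 30.4 CPM in vGluT2-Cre libraries in glutamatergic neurons, against 10.9 and 4.7 CPM and 3.4 and 1.6 CPM in inhibitory neurons. Gabrb2, a beta subunit gene, was also higher (0.71, adjusted p = 8.47e-10). Gabrd, whose product replaces a gamma subunit in receptors outside synapses, was lower (log2 fold change -2.40, SE 0.24, adjusted p = 1.67e-10). The median of the 9 was 0.17. Gabrb1, the other neighbour on chromosome 5, did not pass (-0.19, adjusted p = 0.122).

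Of 16 genes of receptor anchoring and assembly 7 were called, 5 higher and 2 lower, with a median of 0.01. Over all genes 33.5% were called, 17.5% higher and 16% lower, so counts of called genes alone are no result about a list. Plcl1, which binds receptor subunits and phosphatases, was higher by 1.42 (adjusted p = 1.45e-13), and Iqsec3, an exchange factor of inhibitory synapses, by 0.70 (adjusted p = 2.33e-09). Hap1 (-1.27, adjusted p = 2.56e-08) and Gabarap (-0.61, adjusted p = 0.00117), both tied to receptor traffic, were lower. The scaffold gene Gphn passed in the fit (0.19, adjusted p = 0.0314) but was higher in 3 of 4 libraries only. Both GABA-B receptor genes were lower in glutamatergic neurons, Gabbr2 by -0.93 (adjusted p = 8.98e-12) and Gabbr1 by -0.39 (adjusted p = 0.000454). Of 2 chloride transporter genes, Slc12a5, which lowers chloride in neurons, was lower (-0.32, adjusted p = 0.000512), and Slc12a2, which raises it, did not pass (0.21, adjusted p = 0.148). All 6 genes of GABA synthesis and transport were lower, but Gad1, Gad2 and Slc32a1 among them named the inhibitory class and took part in the clustering.

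Glutamatergic neurons split into 11 sub-clusters, and Gabra2 differed among them. It was highest in E10 (led by Pde1a and Hs3st4), with 267 CPM in Ucn3-Cre replicate 2 and 436 CPM in vGluT2-Cre replicate 1, the libraries with at least 5 of its 15 nuclei. E9 (Cpne4 and Sulf1) averaged 257 ± 41.0 CPM, E2 (Lmx1a and Hpse2) 215 ± 71.2 CPM and E0 (Sox6 and Col12a1) 191 ± 53.2 CPM (SD, n = 4). The lowest was E1 (Zfhx3 and Zfhx4), with 87.2 ± 44.6 CPM and a range of 39.5 to 147 CPM. E8, led by Pax2 and Gad2, had 190 ± 72.0 CPM. The F test over sub-clusters passed for Gabra2 (edgeR's quasi-likelihood test with the library as block, adjusted p = 3.55e-05), in a comparison that called 26.9% of 5656 genes, but not without vGluT2-Cre replicate 1 (adjusted p = 0.0883).

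Gabra3 did not pass among glutamatergic sub-clusters (adjusted p = 0.0773), although it passed without the filter on low counts (adjusted p = 0.0388) and without vGluT2-Cre replicate 2 (adjusted p = 0.0489). Its means lay between 26.7 ± 18.8 CPM in E4 (Prox1 and Mertk, one of the unnamed sub-clusters) and 103 ± 30.6 CPM in E9. Gabra5 means lay between 0 and 28.2 CPM, and the highest, in E4, had a spread of 39.6 CPM with values of 0 to 86.5 CPM. Gabra4 averaged 7.23 CPM or less in every sub-cluster.

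Inhibitory neurons split into 9 sub-clusters with enough nuclei, and both Gabra2 and Gabra3 differed among them. Gabra2 stood at 105 ± 53.4 CPM in I5 (141 nuclei, led by Sorcs3 and Megf11), with a range of 24.8 to 137 CPM, against means of 4.61 to 40.4 CPM in the other sub-clusters. The lowest was I8, led by the glycine transporter gene Slc6a5, with 4.61 ± 1.91 CPM. The F test gave an adjusted p of 3.56e-08 for Gabra2 and 1.42e-07 for Gabra3, in a comparison that called 53.2% of 4939 genes. Gabra3 was highest in I0 (96.0 ± 29.2 CPM) and I1 (93.1 ± 37.6 CPM), and lowest in I2 (led by Spon1 and Ly6d), where 3 of 4 libraries were at 0 and the other at 23.9 CPM.

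I5 and I2 were the inhibitory sub-clusters of lowest depth, with medians of 2351 and 2106 counts per nucleus. In I5 the 7 astrocyte markers summed to 113 to 215 CPM and the molecular layer interneuron markers to 2539 to 4087 CPM, against 68.5 to 120 CPM and 984 to 1063 CPM in all inhibitory neurons. Their part in the Gabra2 level of I5 was not tested. In inhibitory cluster 12 Gabra2 had 91.6 and 126 CPM in Ucn3-Cre libraries and 86.2 and 22.8 CPM in vGluT2-Cre libraries. Gabra4 in that cluster was at 0 in both Ucn3-Cre libraries and at 26.7 and 6.86 CPM in vGluT2-Cre libraries, and Gabra5 was at 0 in all 4 libraries. The cluster holds few counts in all, so this does not place Gabra5 below its level in the whole inhibitory class.

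**Figure D3:**
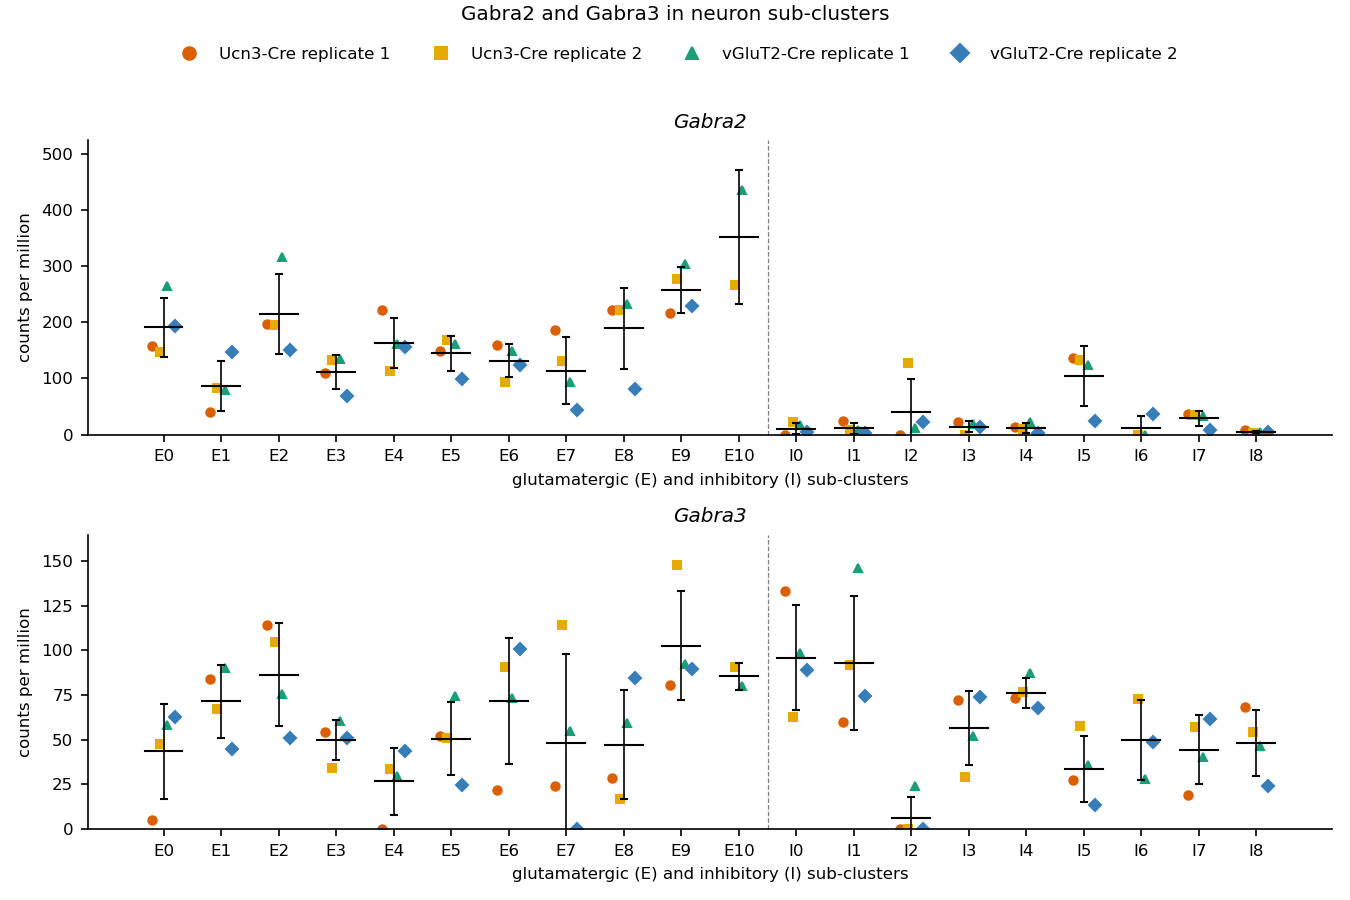
CPM (vertical axes, linear) of Gabra2 and Gabra3 in 11 glutamatergic (E) and 9 inhibitory (I) sub-clusters (horizontal axes), 1 point per library with at least 5 nuclei, with the mean (line) and SD (bar). Gabra2 averages 87.2 CPM or more in every E sub-cluster, among them E8 (190 CPM), which is led by Pax2 and Gad2 and may hold inhibitory neurons. Among the I sub-clusters Gabra2 exceeds 50 CPM on average in I5 alone. Gabra3 averages 26.7 to 103 CPM in E and 5.97 to 96.0 CPM in I sub-clusters.

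More glutamatergic than inhibitory neurons had counts of at least 2 of the 4 genes in each library. At full depth the shares were 20.8% and 35.6% of glutamatergic neurons in Ucn3-Cre libraries and 40.1% and 44.7% in vGluT2-Cre libraries, at median depths of 7014 to 16012 counts. Among inhibitory neurons they were 1.94% and 1.26% in Ucn3-Cre libraries and 3.23% and 4.55% in vGluT2-Cre libraries, at 3746 to 7675 counts. The shares depend on depth. Drawn down to 3000 counts, 8.25% and 10.1% of glutamatergic neurons in Ucn3-Cre libraries and 7.81% and 3.19% in vGluT2-Cre libraries had counts of at least 2 of the 4 genes. Among inhibitory neurons these shares were 0% and 0.66% in Ucn3-Cre libraries and 0.48% and 0.87% in vGluT2-Cre libraries. At 3000 counts Gabra2 was found in 35.2% of glutamatergic and 3.86% of inhibitory neurons, and Gabra3 in 16.8% and 17.0%. Whether the joint shares differ from those of genes detected separately was not tested, so they are no result about joint expression. None of the 4 genes was detected in 42.2% to 60.6% of glutamatergic and 75.2% to 82.7% of inhibitory neurons at that depth, which bounds detection and not expression.

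Patterns were compared over 30 sub-clusters, other classes and unnamed clusters as the Pearson correlation of log2(mean CPM + 1), among 12074 genes of at least 5 CPM on average. These correlations describe units that share libraries and depth, and carry no p. The genes most like Gabra2 were Vav3 (r = 0.906), Plch1, Wwc1, Fam19a1 and Dach1 (r = 0.818). Gabrg1 ranked 8 among 12073 other genes (r = 0.798) and Gabrb1 ranked 52 (r = 0.740), while Gabra4, which lies between them on the chromosome, had r = 0.269. The genes most like Gabra3 were Nrg3os (r = 0.941), Rap1gap, Gm20642, Rgs17 and Vstm5 (r = 0.929). The genes most like Gabra4 were F3 (r = 0.715), Fgfr3, Btbd17, E130114P18Rik and Etnppl (r = 0.689), and Gabrb1 ranked 262 (r = 0.464). Gabra4 reached the limit of 5 CPM only through astrocytes (150 CPM), so its likeness to genes high in astrocytes is no separate finding. Oligodendrocyte precursors came next at 23.0 CPM. In most other units Gabra4 rests on few counts, so its correlations, also that with Gabra2, are uncertain. Gabra5 was under 5 CPM on average and was not compared.

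Among the 4 classes given here, the neighbours of Gabra2 and Gabra4 on chromosome 5 were also highest in astrocytes. Gabrb1, a beta subunit gene, stood at 4476 ± 325 CPM in astrocytes, 487 ± 67.0 CPM in oligodendrocyte precursors, 181 ± 48.8 CPM in glutamatergic neurons and 213 ± 26.2 CPM in inhibitory neurons (SD, n = 4). Gabrg1 stood at 81.8 ± 14.0 CPM in astrocytes, 34.7 ± 7.08 CPM in glutamatergic neurons, 24.4 ± 3.52 CPM in precursors and 5.14 ± 4.02 CPM in inhibitory neurons. That is the same order of these 4 classes as for Gabra2. Within astrocytes Gabrg1 went the other way, since it was lower in cluster 9 than in cluster 4. Gabra2 and Gabra4 were both higher in cluster 9 than in cluster 4.

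**Figure D4:**
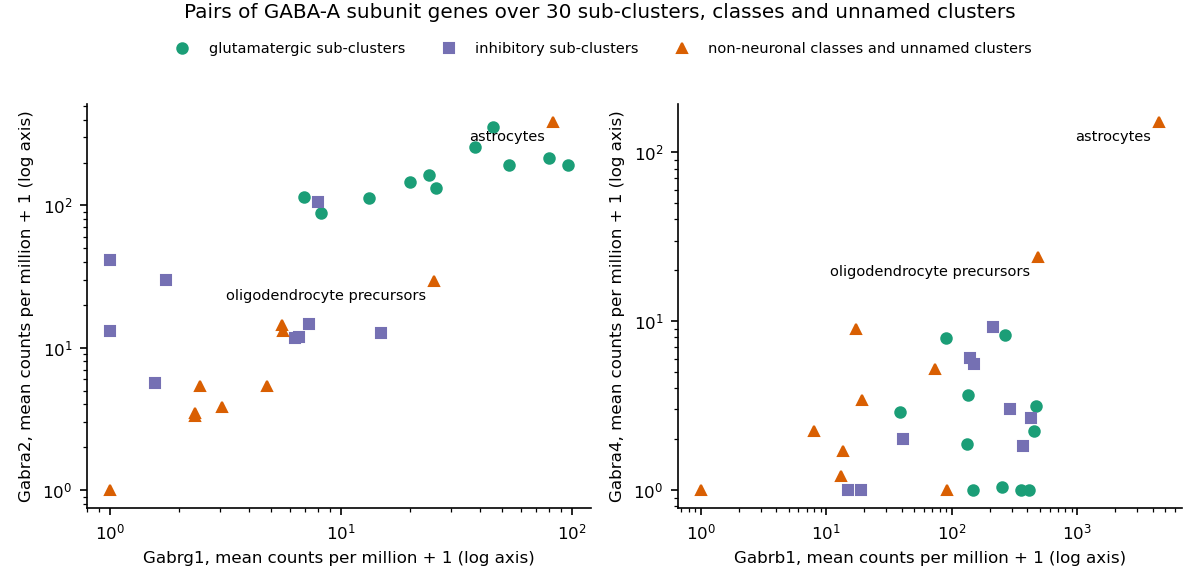
Mean CPM plus 1 (both axes logarithmic) of Gabra2 against Gabrg1 and of Gabra4 against Gabrb1, 1 point per glutamatergic sub-cluster, inhibitory sub-cluster, other class or unnamed cluster (30 in all). Gabra2 and Gabrg1 are both high in astrocytes and several glutamatergic sub-clusters (r = 0.798), while Gabrg1 is at 5.90 to 12.3 CPM in E7, E1 and E3, and Gabra4 and Gabrb1 are both highest in astrocytes (r = 0.464 over the 30). Outside astrocytes and oligodendrocyte precursors Gabra4 rests on few counts.

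Between the mouse lines no member passed the threshold, but these tests could find only large differences. In counts drawn with known changes, they recovered 2 of 100 2-fold changes in all nuclei. In glutamatergic and in inhibitory neurons they recovered 7 of 100. Of 100 4-fold changes they recovered 50, 51 and 59. A member that did not pass can therefore still differ between the lines. In all nuclei Gabra2 had 128 and 93.4 CPM in Ucn3-Cre libraries, against 118 and 120 CPM in vGluT2-Cre libraries (log2 fold change -0.09, SE 0.22). Gabra3 had 13.8 and 18.6 CPM in Ucn3-Cre libraries, against 25.8 and 16.0 CPM in vGluT2-Cre libraries (-0.35, SE 0.30). Gabra4 had 38.6 and 36.7 CPM in Ucn3-Cre libraries, against 34.8 and 40.5 CPM in vGluT2-Cre libraries (0.01, SE 0.14). These values mix level per nucleus with the number of nuclei of each class, which cannot be told apart in sums over all nuclei. The adjusted p of every member was 1 in edgeR's quasi-likelihood test.

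Within astrocytes Gabra2 had 386 and 296 CPM in Ucn3-Cre libraries, against 431 and 419 CPM in vGluT2-Cre libraries, and the lines did not overlap (log2 fold change -0.28, SE 0.19, adjusted p = 1). The value was -0.07 without Ucn3-Cre replicate 2 and -0.53 without Ucn3-Cre replicate 1. Gabra4 had 130 and 148 CPM in Ucn3-Cre libraries, against 163 and 158 CPM in vGluT2-Cre libraries, also without overlap (-0.18, SE 0.12, adjusted p = 1). Within glutamatergic neurons Gabra5 had 6.79 and 6.18 CPM in Ucn3-Cre libraries, against 17.0 and 14.0 CPM in vGluT2-Cre libraries (-1.16, SE 0.60, adjusted p = 1). Gabra2 (-0.04, SE 0.22) and Gabra3 (-0.20, SE 0.24) overlapped between the lines in glutamatergic neurons. In inhibitory neurons Gabra2 had 20.9 and 25.7 CPM in Ucn3-Cre libraries, against 22.4 and 7.09 CPM in vGluT2-Cre libraries (0.65, SE 0.55, adjusted p = 1). That value was 0.10 without vGluT2-Cre replicate 2 and 1.68 without vGluT2-Cre replicate 1.

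Calls between lines were 0% of genes in each of these comparisons. At an unadjusted p under 0.05 there were 478 of 13794 genes in all nuclei, 306 of 11094 in glutamatergic neurons, 340 of 11324 in inhibitory neurons and 360 of 11981 in astrocytes. DESeq2 called 218, 4, 14 and 77 genes in the same comparisons, no member among them. Whether the difference between glutamatergic and inhibitory neurons itself depended on the line was tested as an interaction, which called 8 of 11978 genes (0.0668%) and no member (Gabra2 -0.70, SE 0.30, adjusted p = 0.82). The Gabra2 difference between the classes was 2.91 and 2.54 in Ucn3-Cre libraries and 3.12 and 4.14 in vGluT2-Cre libraries.

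**Figure D5:**
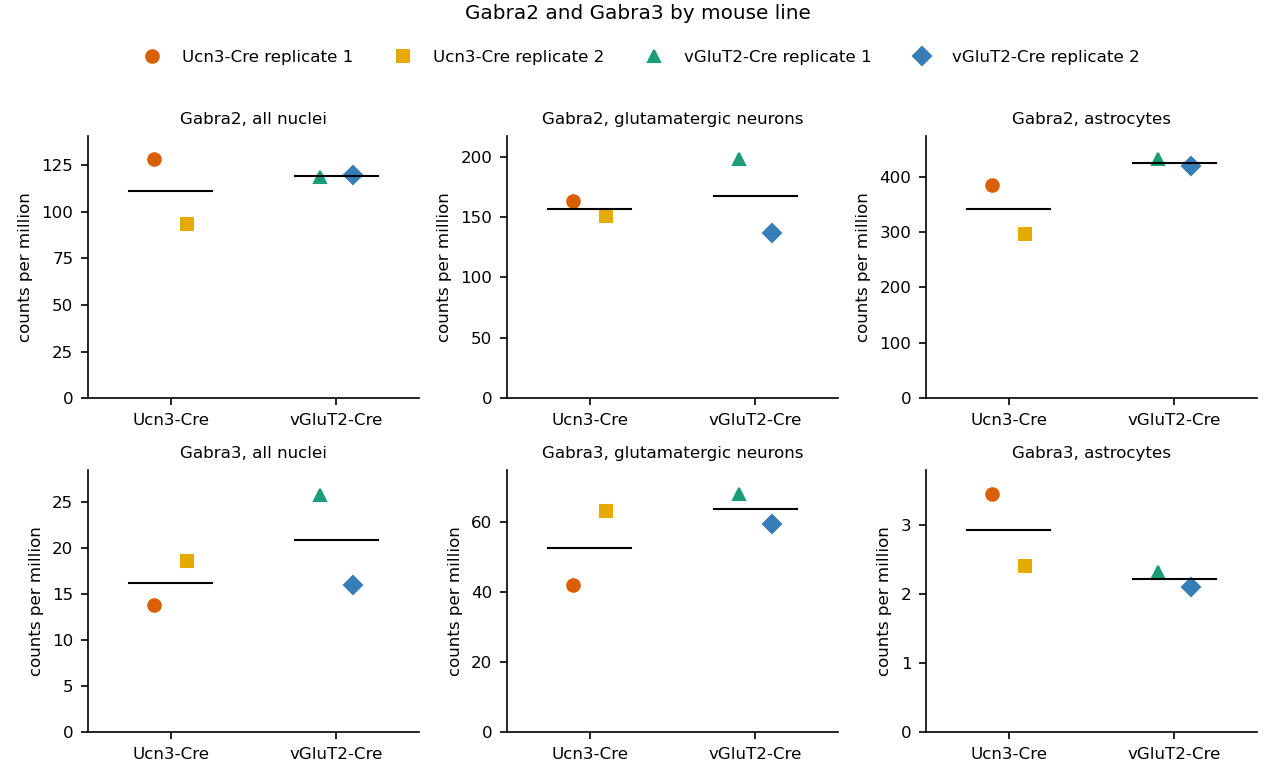
CPM (vertical axes, linear) of Gabra2 and Gabra3 in all nuclei, glutamatergic neurons and astrocytes of the Ucn3-Cre and vGluT2-Cre lines (horizontal axes), 1 point per library with the mean of 2 libraries (line). The lines overlap in every panel except astrocytes, where Gabra2 has 386 and 296 CPM in Ucn3-Cre libraries, against 431 and 419 CPM in vGluT2-Cre libraries, and Gabra3 has 3.44 and 2.41 CPM, against 2.32 and 2.10 CPM. These Gabra3 levels rest on 7.3 to 9.6 counts per library, and Gabra3 was not tested between lines in astrocytes.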

How the data were processed

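Single-nucleus RNA-seq tables of 4 libraries and a table of vGluT2 nuclei were analysed. The authors deposited estimated counts per gene and nucleus that are not whole, as after a background correction that the sources used here do not describe. Cell Ranger 3.1.0, Seurat 3.2 and the mm10 build are named in the submitters' processing notes, and whether reads in introns were counted is not given there. Values of the vGluT2 table were identical to those of the library tables.

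Nuclei were clustered with scanpy 1.11.5 (2000 variable genes without the receptor lists, 30 components, Leiden resolution 1) and named by marker genes. Scrublet marked 0.172% of nuclei, so the 947 with the highest scores were removed instead. Neurons were clustered again (resolution 0.5). Counts were summed per library and class or sub-cluster and rounded. The tests used the quasi-likelihood test of edgeR 4.0.16, after its filter on low counts and TMM scaling, and p-values were adjusted by Benjamini-Hochberg across every gene in a fit, with calls at 0.05. A class entered with 20 or more nuclei in each library, and a sub-cluster sum with 5 or more. DESeq2 1.42.0 was an alternative. Scripts were tested on data with known changes. Single-nucleus shares carry exact Clopper-Pearson 95% intervals, and 3 counts is the limit that a count of 0 allows.

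The members, gene lists and tests were chosen with earlier results of these data known. Named besides the members are up to 6 genes per list and comparison with the largest change among those past the threshold and in 1 direction in all libraries, and the 5 genes with the most similar pattern. Gphn, Gabrb1 and Slc12a2 were named after their values were seen. Gabre, Gabrq, Gabrr1 and Gabrr3 were not analysed here, and some genes of the lists that the naming rule takes are not reported here. Replicates are libraries. In the main tests between lines, p-values measure the spread between libraries. In the other main tests the library was a block, so p-values measure the spread left after library and class or cluster.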

Additional observations from a re-analysis of the deposited data

Results flagged for a closer look

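In groups of 4 libraries, 45 levels of a member in a class or cluster were checked for a library whose gap to the next was large against the group's range, and 5 stood apart. The rate of about 1 in 20 by chance holds only for separate groups with a normal spread. These groups overlap, since all nuclei hold the classes and astrocytes hold their clusters. A library with any counts beside others at 0 always stands apart, so no excess is read from the 5. Gabra3 in inhibitory neurons stood at 78.0 CPM in vGluT2-Cre replicate 1, against 60.4 to 63.3 CPM in the other libraries. The other 4 were Gabra5 levels with the remaining libraries at 0, namely 1.43 CPM in endothelial cells, 1.15 CPM in microglia and 0.46 CPM in astrocyte cluster 5 of vGluT2-Cre replicate 2, and 1.26 CPM in astrocyte cluster 9 of Ucn3-Cre replicate 1.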

How the results depend on the processing

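Alternatives were other size factors, no filter on low counts, values rounded up, DESeq2, other nuclei or clusters, and each library left out. Between glutamatergic and inhibitory neurons, Gabra2 lay between 3.00 and 3.42 (log2) without each library in turn. It was 2.63 at Leiden resolution 2, and it passed in every alternative run. At that resolution 505 nuclei were named glutamatergic in place of 547. A cluster of 42 nuclei, with Pax2 and Tfap2b among its leading genes, was named inhibitory. Without the library block 1808 genes were called in place of 4007, and Gabra5 gave 1.47 (adjusted p = 0.105). Gabra3 turned to 0.0439 without the unnamed glutamatergic sub-clusters (adjusted p = 0.814). The cause was not tested in these or the following cases.

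Among glutamatergic sub-clusters the adjusted p of Gabra2 lay between 3.99e-05 and 0.0883 with each library left out, that of Gabra3 between 0.0489 and 0.514, and the genes called between 844 and 1334. Gabra3 gave 0.0388 without the filter.

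Between the lines, DESeq2 called 218 genes in all nuclei, 4 in glutamatergic neurons, 14 in inhibitory neurons and 77 in astrocytes. With each library left out, which leaves 1 library in a line, assumed to vary like the others, calls lay between 0 and 44 in glutamatergic neurons (44 without vGluT2-Cre replicate 2) and between 0 and 16 in inhibitory neurons (16 without vGluT2-Cre replicate 2). In all nuclei, Gabra2 lay between -0.364 and 0.158 and Gabra4 between -0.121 and 0.169, and Gabra4 was -0.0144 with values rounded up. In glutamatergic neurons Gabra2 lay between -0.251 and 0.205 and Gabra3 between -0.551 and 0.0295, and in inhibitory neurons Gabra3 between -0.282 and 0.0473 and Gabra2 between 0.102 and 1.68. In astrocytes Gabra2 lay between -0.525 and -0.0668. None of these passed.

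Small differences between neighbouring low classes changed sign with a library left out, none of which passed in the main test. Gabra4 in endothelial cells against microglia lay between -1.58 and 1.13 (0.839 with values rounded up), in microglia against inhibitory neurons between -1.23 and 1.47, and in inhibitory against glutamatergic neurons between -0.214 and 1.31. Gabra3 lay between -0.816 and 0.101 in astrocytes against oligodendrocytes (-0.101 to 0.816 the other way round) and between -1.85 and 0.312 in endothelial cells against oligodendrocytes. Gabra2 in oligodendrocytes against microglia lay between -0.295 and 1.52.

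Replicate numbers are shared by the lines but join a female with a male library. The column names of both replicate 2 libraries share a number whose meaning the labels do not give, and those of the replicate 1 libraries do not. Same-numbered libraries deviated together little (correlation 0.027 in all nuclei, 0.135 in glutamatergic neurons, 0.089 in inhibitory neurons and 0.038 in astrocytes). With the replicate block, 0 genes were called in each, and Gabra2 gave -0.108 in all nuclei, -0.0177 in glutamatergic neurons, 0.845 in inhibitory neurons and -0.299 in astrocytes, all with an adjusted p near 1. Depth limits Gabra5 most, with 119 counts in all.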
